A study of Danio rerio with 12 samples.

Results

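The genotype effect over both ages was measured by setting 6 ovary libraries of adamts9 mutant zebrafish against 6 ovary libraries of wild-type zebrafish, with age as a term in the model. The 6 mutant libraries comprised 3 at 47 days post fertilization (dpf) and 3 at 61 dpf, and the 6 wild-type libraries were split in the same way. These 12 libraries are the whole series. Mutant fish came from a mutant line whose allele and strain background the labels do not give, and wild-type fish were of the AB strain. An effect of the mutation and a difference between the lines therefore cannot be told apart for any gene. The labels name no other allele, transgene or treatment in either group, and they do not say whether a replicate is 1 fish or a pool. P-values therefore rest on the variation among these libraries, part of which may be technical. The ages are those of the sample labels, and the series' design text names different ones. Of 26154 named genes in the deposited table, 19806 were placed on another chromosome than adamts9, 705 on the same chromosome and 5643 could not be placed. The genes on other chromosomes are the subject of what follows, and those on the chromosome of adamts9 serve as contrast.

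ADAMTS9 is a secreted metalloprotease that cleaves large proteoglycans of the extracellular matrix such as versican. In the fish ovary each oocyte is enclosed by granulosa cells, a basement membrane and theca cells, and this wall is remodelled by proteases while the follicle grows and again at ovulation. The stroma around the follicles holds fibroblasts, blood vessels and leukocytes, and the ovary is covered by a simple epithelium.

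Total estimated counts ranged from 16439538 to 29246007 per mutant library and from 21679920 to 38720166 per wild-type library. Where a library has a count of 0, up to 3 counts remain possible, or 0.0775 to 0.182 CPM (counts scaled to a common library size). This floor covers counting error only. CPM values are scaled by TMM and are not divided by transcript length, so levels are compared between libraries and not between genes. The libraries matched the labelled tissue, because the oocyte genes gdf9, bmp15, figla, zp3b, zar1, buc and zp2.1 were detected in every library. The testis genes cyp11c1 and insl3 reached at most 1.01 CPM in mutants and 0.974 CPM in wild type. Of the other testis markers, sox9a reached 2.46 CPM in mutants and 1.6 CPM in wild type, while dmrt1 reached 19.7 and 21.4 CPM. The wild-type libraries of 61 dpf stood apart on the first principal component, which held 26.2% of the variance. Their scores were 42.8 to 105.5, against -26.8 to -14.6 for the mutant libraries of 61 dpf. At 47 dpf the scores were -59.0 to -24.5 in mutants and -31.2 to 1.12 in wild type. The same 3 wild-type libraries also differed most among themselves, with a median SD of 0.443 on the log2 CPM scale, against 0.229 to 0.302 in the other groups.

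The targeted gene gave no check of the labels. For adamts9 the libraries held 15.2, 14.5 and 13.1 CPM in mutants at 47 dpf, against 18.9, 17.4 and 13.7 CPM in wild type. The values were 12.9, 16.1 and 14.4 CPM in mutants at 61 dpf, against 9.99, 15.6 and 16 CPM in wild type. The groups overlapped at both ages. The difference in mean log2 CPM was -0.062 for mutant minus wild type, with p = 0.68 in an exact two-sided permutation test over 400 arrangements within the ages, whose smallest possible p is 0.005. A mutation that alters the protein and not the transcript level would not be seen in these counts.

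Of 21393 genes tested, 243 (1.14%) passed an adjusted p of 0.05 in edgeR's quasi-likelihood test with age plus genotype. On the other 24 chromosomes 182 of 17521 genes tested were called, which is 1.04%. Of these, 153 (0.873%) were higher in mutant ovaries and 29 (0.166%) were lower. Of 634 genes on the chromosome of adamts9, 35 (5.52%) passed the test, with 19 (3%) higher and 16 (2.52%) lower. Among the genes that could not be placed, 26 of 3238 were called, which is 0.803%. The share called on any single one of the other 24 chromosomes lay between 0.301% and 1.86%. At an unadjusted p under 0.05, 4514 genes (21.1%) differed. Called genes off the chromosome of adamts9 were thus mostly higher in mutants, while those on it were nearly balanced between the directions. The split depended on the method, since DESeq2 called 611 higher and 699 lower among the genes on the other chromosomes.

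**Figure D1:**
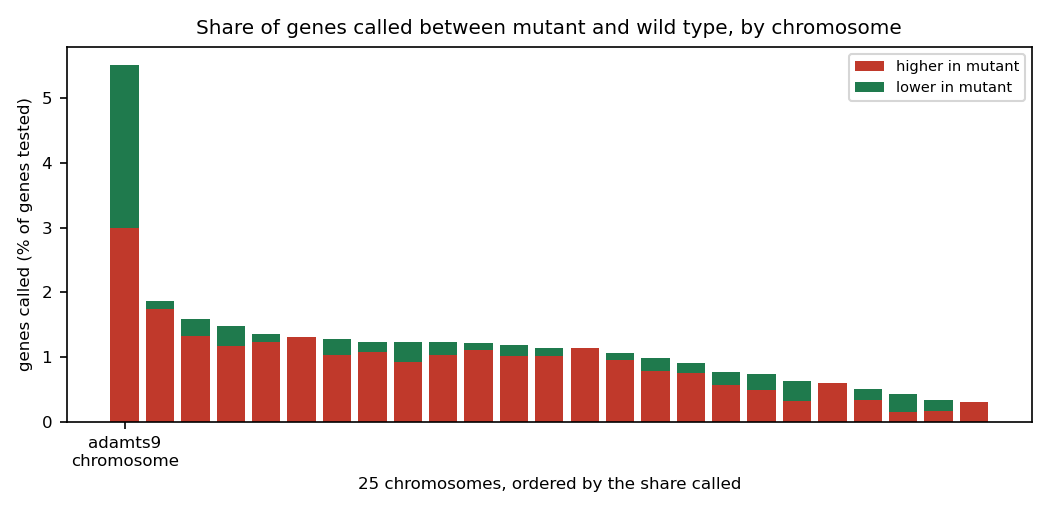
Share of genes called between mutant and wild-type ovaries on each of 25 chromosomes (% of genes tested there), stacked by direction and ordered by size. The chromosome of adamts9 has 5.52% of its genes called, and the other 24 have 0.301% to 1.86%.

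The count of calls leaned on single libraries. Over the 12 fits that each left out 1 library, 21 to 194 genes were called higher and 1 to 79 lower off the chromosome of adamts9. Without mutant replicate 1 of 47 dpf the counts were 78 higher and 14 lower, without replicate 2 they were 114 and 8, and without replicate 3 they were 109 and 43. Without mutant replicate 1 of 61 dpf they were 82 and 6, without replicate 2 they were 35 and 3, and without replicate 3 they were 43 and 1. Without wild-type replicate 1 of 47 dpf they were 194 and 79, without replicate 2 they were 43 and 12, and without replicate 3 they were 21 and 1. Without wild-type replicate 1 of 61 dpf they were 42 and 8, without replicate 2 they were 64 and 16, and without replicate 3 they were 80 and 6. Of the 182 genes, 18 were called in all 12 of these fits, 61 in at least 6 and 3 in none. Each fit kept the direction of all 182 genes, which choosing them on the effect in these same libraries favours. The 18 genes called in every fit were aldh1a2, wt1a, krt18a.1, mdka, f2r, scara3, dbn1, zfp36l1b, cd74a, cd74b, mhc1uba, coro1a, ccl19a.2, ccl34b.1, si:ch211-196f2.6, si:dkey-262k9.4 and si:dkey-7i4.24, which were higher in mutants, and csad, which was lower. This set was chosen after its values were seen. Among them are genes of the gonadal soma and mesothelium, of simple epithelia, of antigen presentation and of chemokine signalling.

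The genes aldh1a2, wt1a and wt1b, which act in gonadal somatic cells and in mesothelium, were higher in mutant ovaries. The gene aldh1a2 encodes the retinaldehyde dehydrogenase that makes retinoic acid. Its level was 32.8, 19.1 and 27.3 CPM in mutants at 47 dpf, against 12.1, 9.57 and 7.68 CPM in wild type. It was 18, 21.9 and 21.6 CPM in mutants at 61 dpf, against 5.71, 6.19 and 9.12 CPM in wild type. Every mutant library was above every wild-type library, and the log2 fold change was 1.49 ± 0.18 (± SE, here and for every log2 fold change) with an edgeR adjusted p of 0.00208. The gene wt1a encodes a zinc finger transcription factor of the gonadal soma and of mesothelium. Its level was 29.1, 26.8 and 24.3 CPM in mutants at 47 dpf, against 12.9, 8.42 and 7.11 CPM in wild type. It was 16.4, 32.5 and 29.4 CPM in mutants at 61 dpf, against 7.04, 11.8 and 6.36 CPM in wild type. The 6 mutant libraries again lay above the 6 wild-type libraries, with a log2 fold change of 1.57 ± 0.22 and an edgeR adjusted p of 0.00567. The paralogue wt1b had 5.94, 8.47 and 16.5 CPM in the 6 mutant libraries (lowest, median and highest, here and wherever 3 values stand without an age), against 2.22, 3.1 and 4.65 CPM in wild type. Its log2 fold change was 1.56 ± 0.27 with an edgeR adjusted p of 0.0197, and it was called in 9 of the 12 fits that left out 1 library.

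These 3 genes were the only members called over both ages among 27 tested genes of a list of testis somatic cell genes, beside 0.893% of all genes called higher. All 3 are also expressed outside the testis. This list and every list below were chosen with earlier results of these data known, so no list is independent evidence of its direction. At 61 dpf in the 4-group model 5 members were called, beside 1.64% of genes off the chromosome of adamts9. Among the 5 were gsdf and pdgfra, which were not called over both ages. Fitted on the 61 dpf libraries alone, none of 25 tested members was called. The list's median log2 fold change was 0.22, beside 0.02 over all genes tested, and 17 of the 27 were above 0. Of genes that act in the testis soma, sox9a, dmrt1 and amh were not called, over both ages or at either age in the 4-group model. The Sertoli cell transcription factor gene sox9a had 1.15, 1.84 and 2.46 CPM in mutants, against 0.686, 1 and 1.6 CPM in wild type, with a log2 fold change of 0.87 ± 0.27 and an edgeR adjusted p of 0.113. The male pathway transcription factor gene dmrt1 had 2.33, 4.23 and 19.7 CPM in mutants, against 2.15, 9.08 and 21.4 CPM in wild type, and its groups overlapped widely. Its log2 fold change was -0.68 ± 0.54 with an edgeR adjusted p of 0.479. The gene amh, which encodes the anti-Mullerian hormone of granulosa and Sertoli cells, had 4.4, 6.46 and 7.39 CPM in mutants, against 5.62, 6.39 and 12.6 CPM in wild type.

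A keratin, a growth factor and a receptor gene were also called in every fit that left out 1 library. A keratin of simple epithelia, krt18a.1, was measured at 72.4, 50.3 and 51 CPM in mutants at 47 dpf, against 23.4, 17.3 and 21.2 CPM in wild type. It was 47.3, 66 and 41.2 CPM in mutants at 61 dpf, against 16.6, 18.3 and 23.8 CPM in wild type. No mutant library reached down to the wild-type range, and the log2 fold change was 1.44 ± 0.16 with an edgeR adjusted p of 0.000887. The heparin-binding growth factor gene mdka, encoding midkine, was at 14.4, 10.6 and 15.4 CPM in mutants at 47 dpf, against 4.45, 3.96 and 4.97 CPM in wild type. It was 6.41, 4.8 and 8.58 CPM in mutants at 61 dpf, against 2.84, 2.22 and 1.68 CPM in wild type. Within each age the groups were separate, although 1 mutant library of 61 dpf, at 4.80 CPM, fell inside the wild-type range of 47 dpf, and the log2 fold change was 1.57 ± 0.19 with an edgeR adjusted p of 0.00208. The thrombin receptor gene f2r was at 4.83, 3.44 and 2.27 CPM in mutants at 47 dpf, against 1.12, 0.686 and 0.306 CPM in wild type. It was 3.18, 4.91 and 4.73 CPM in mutants at 61 dpf, against 0.812, 0.567 and 0.731 CPM in wild type. Its log2 fold change of 2.45 ± 0.30, with an edgeR adjusted p of 0.00208, was larger than those of krt18a.1 and mdka, and its groups did not overlap.

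Further genes of this stable group were scara3, dbn1 and zfp36l1b. The scavenger receptor gene scara3 had 1.63, 2.29 and 3.11 CPM in mutants, against 0.406, 0.625 and 0.761 CPM in wild type, and its log2 fold change was 1.99 ± 0.23 with an edgeR adjusted p of 0.00124. The actin-binding protein gene dbn1, encoding drebrin, had 3.02, 3.72 and 4.4 CPM in mutants, against 1.22, 1.36 and 1.84 CPM in wild type. Its log2 fold change was 1.37 ± 0.19. The gene zfp36l1b, whose product binds AU-rich elements of messenger RNA, had 30.2, 35.5 and 42.6 CPM in mutants, against 16.9, 19.4 and 25.4 CPM in wild type, with a log2 fold change of 0.85 ± 0.13. In all 3 genes the lowest mutant library was above the highest wild-type library.

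**Figure D2:**
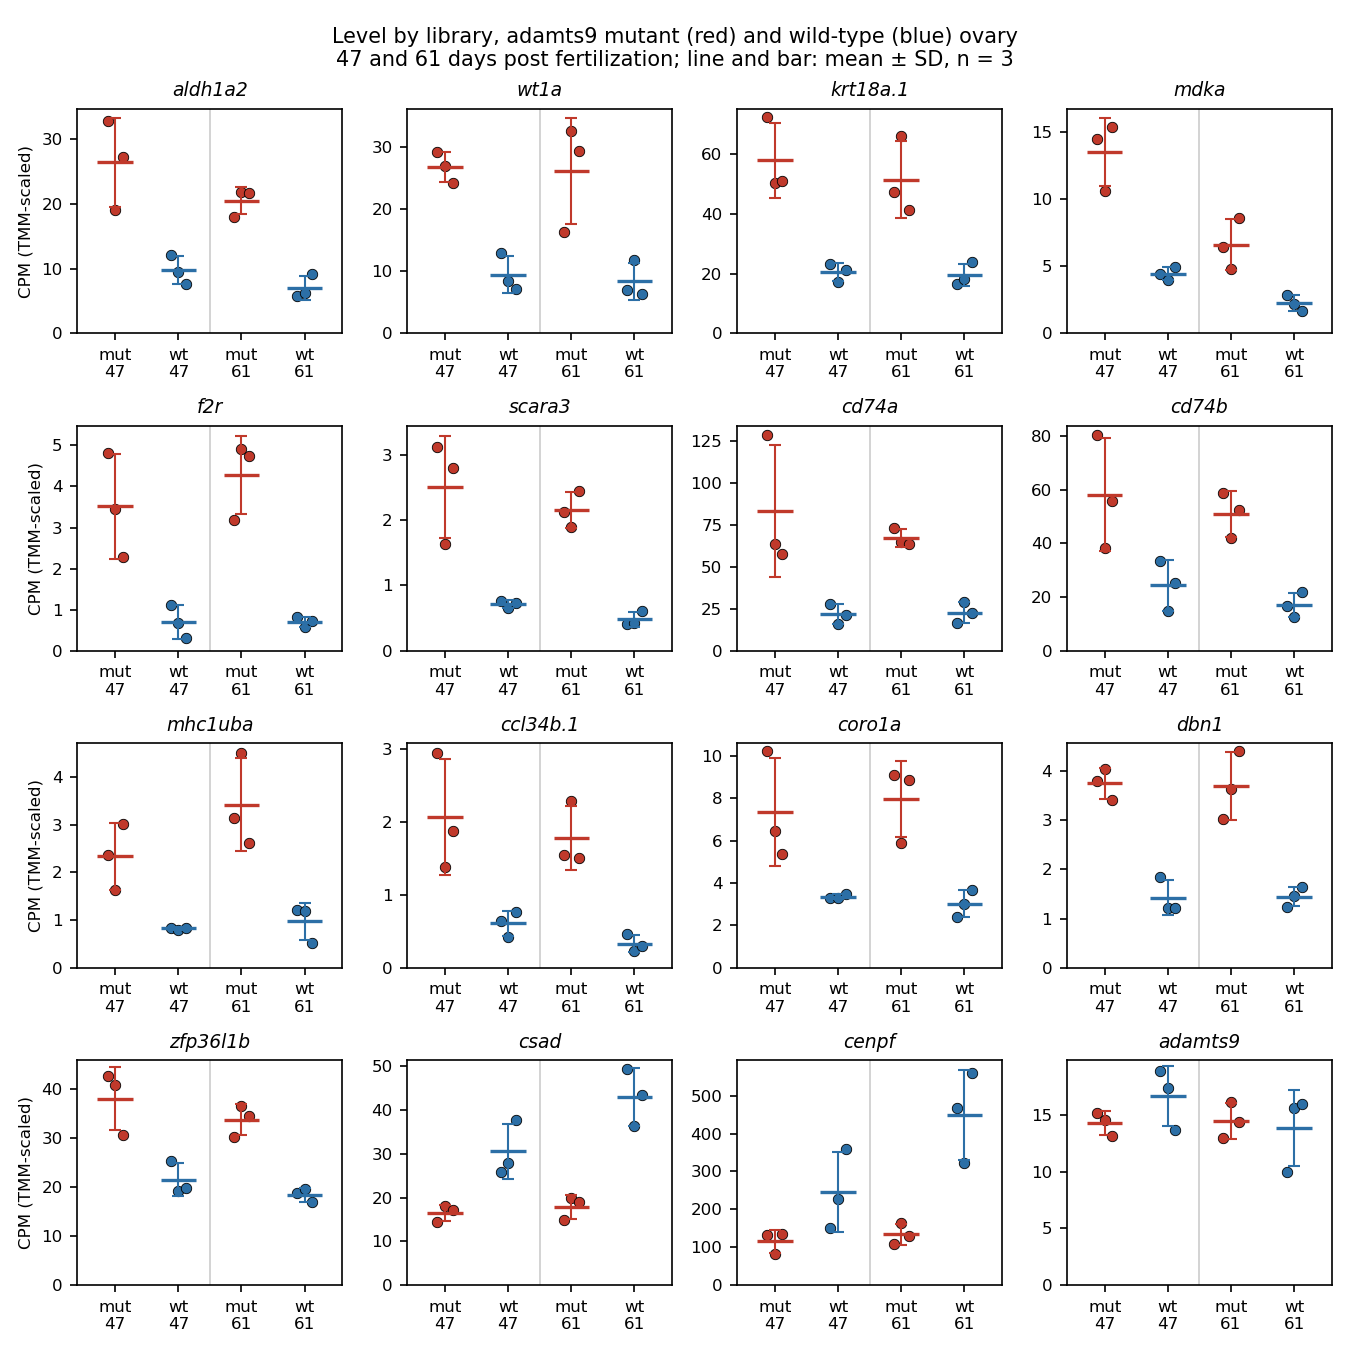
Level of 16 genes in each of the 12 libraries (CPM scaled by TMM, axes from 0), with mutant libraries in red left of wild-type libraries in blue at 47 and at 61 dpf; lines and bars are mean ± SD over 3 libraries. In the first 13 panels all mutant points lie above all wild-type points of the same age, in csad and cenpf they lie below, and in adamts9 they overlap.

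Genes of the follicle and of hormone synthesis were not called over both ages, while fshr and gsdf were called at 61 dpf in the 4-group model only. None of 27 tested genes of the granulosa and follicle list and none of 23 of the steroid synthesis list passed the test over both ages. This stands beside 1.14% of all genes called, a share at which such lists would hold few or no calls. DESeq2 called 1 granulosa and follicle gene higher and 1 lower, and 1 steroid synthesis gene lower. With that method 7.48% of genes off the chromosome of adamts9 were called either way. The median log2 fold changes of the granulosa and follicle list and the steroid synthesis list were 0.28 and -0.02. The granulosa and follicle median was 0.33 at 47 dpf and -0.04 at 61 dpf in the 4-group model, and over both ages it was 0.033 without mutant replicate 2 of 47 dpf. The aromatase gene cyp19a1a, which makes estradiol, had 0.524, 1.07 and 4.04 CPM in mutants, against 0.343, 1.24 and 2.32 CPM in wild type, and its log2 fold change was 0.53 ± 0.54 with an edgeR adjusted p of 0.594. The ovarian transcription factor gene foxl2a had 4.51, 7.78 and 8.65 CPM in mutants, against 2.58, 5.16 and 6.8 CPM in wild type, with a log2 fold change of 0.43 ± 0.24 and an edgeR adjusted p of 0.306. Its paralogue foxl2b had a log2 fold change of -0.13 ± 0.18. The granulosa growth factor gene gsdf was at 47.4, 97 and 79.6 CPM in mutants at 47 dpf, against 93.3, 51.3 and 52.1 CPM in wild type. It was 36.1, 44.8 and 53.6 CPM in mutants at 61 dpf, against 17.1, 18.9 and 9.93 CPM in wild type. At 61 dpf the groups were separate and at 47 dpf they overlapped, and the log2 fold change of 0.86 ± 0.30 over both ages had an edgeR adjusted p of 0.137. At 61 dpf gsdf was called, with a log2 fold change of 1.55 ± 0.34 and an edgeR adjusted p of 0.0438 in the 4-group model. Over both ages neither gonadotropin receptor gene was called, with log2 fold changes of -0.51 ± 0.25 for fshr and 0.02 ± 0.36 for lhcgr. The fshr values were 5.85, 4.16 and 4.37 CPM in mutants at 47 dpf, against 4.37, 3.89 and 4.66 CPM in wild type. They were 4.86, 4.11 and 3.9 CPM in mutants at 61 dpf, against 7.31, 11.5 and 10.4 CPM in wild type. All mutant libraries of 61 dpf lay below all wild-type libraries of that age, and the edgeR adjusted p over both ages was 0.261. In the 4-group model fshr was called lower at 61 dpf, with a log2 fold change of -1.18 ± 0.24 and an edgeR adjusted p of 0.0379. At 47 dpf its log2 fold change was 0.16 ± 0.24. Fitted on the 61 dpf libraries alone, none of 26 tested genes of the granulosa and follicle list was called. That fit called 0.0357% of genes off the chromosome of adamts9. The difference between the ages had an edgeR adjusted p of 0.395 for fshr and 0.494 for gsdf. The nuclear progestin receptor gene pgr, which acts in ovulation, had a log2 fold change of 0.52 ± 0.23 with an edgeR adjusted p of 0.218. The inhibin alpha gene inha had -0.40 ± 0.25 and the cholesterol transport gene star had 0.20 ± 0.23 on the same log2 scale. The smallest p in these lists belonged to igf2b, an insulin-like growth factor gene, and hsd17b1, whose enzyme converts estrone to estradiol. Their log2 fold changes were 0.61 ± 0.17 and -0.42 ± 0.15, and their edgeR adjusted p-values were 0.0909 and 0.144.

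The oocyte, germ cell and meiosis lists gave no called gene, over both ages or at either age in the 4-group model. None of 27 oocyte genes, 19 germ cell and piRNA genes and 23 meiosis genes passed the test, beside 1.14% of all genes called over both ages. At that share a list of this size would hold few or no calls, here and in every other list with none. The median log2 fold changes of the lists were 0.02, -0.03 and -0.20. On leaving out 1 library the meiosis median stayed at -0.27 to -0.15. DESeq2 called 3 of the 23 meiosis genes lower, beside 7.48% of genes off the chromosome of adamts9 called either way. The oocyte growth factor gene gdf9 had 57.6, 62.3 and 69.4 CPM in mutants, against 62.6, 76.2 and 91 CPM in wild type, and its log2 fold change was -0.28 ± 0.11 with an edgeR adjusted p of 0.167. Its partner gene bmp15 had 147, 182 and 206 CPM in mutants, against 151, 233 and 539 CPM in wild type, with a log2 fold change of -0.49 ± 0.24 and an edgeR adjusted p of 0.247. The oocyte transcription factor gene figla had a log2 fold change of 0.51 ± 0.20 with an edgeR adjusted p of 0.172. Of the oocyte list, the gene with the smallest p was zar1. It had 675, 713 and 869 CPM in mutants, against 367, 555 and 708 CPM in wild type, a log2 fold change of 0.43 ± 0.13 and an edgeR adjusted p of 0.115. The germ plasm helicase gene ddx4, also called vasa, was at 278, 1174 and 1147 CPM in mutants at 47 dpf, against 362, 339.6 and 737 CPM in wild type. It was 1635, 862 and 957 CPM in mutants at 61 dpf, against 637, 622 and 743 CPM in wild type. The mutant libraries were higher at 61 dpf, but mutant replicate 1 of 47 dpf was the lowest of all, and the log2 fold change of 0.82 ± 0.32 had an edgeR adjusted p of 0.173. The RNA-binding protein genes dazl and nanos3 had log2 fold changes of 0.01 ± 0.20 and 0.15 ± 0.18. The meiotic crossover gene mlh3 had 18.3, 23.6 and 27.3 CPM in mutants, against 27.9, 31.1 and 35.9 CPM in wild type, with a log2 fold change of -0.42 ± 0.11 and an edgeR adjusted p of 0.0837. Summed over the oocyte list, mutants had 16525 to 26268 CPM and wild type had 9897 to 22396 CPM.

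Collagen, laminin, fibronectin and elastin genes were among those higher in mutant ovaries, and no member of either matrix list was called lower. Of all genes 0.243% were called lower, a share at which such lists would hold few or no lower calls. In the list of collagens and basement membrane genes, 9 of 41 tested members were called higher, beside the 0.893% of all genes called higher, and 36 of the 41 were above 0. The list's median log2 fold change was 0.55, beside 0.02 over all genes. The 9 genes were col1a1a, col1a2, col5a1, col5a2a, col6a1, col6a3, lama4, lama5 and sparc, of which col6a1 lies on the chromosome of adamts9. The fibrillar collagen gene col5a2a was at 10.5, 13.3 and 12.1 CPM in mutants at 47 dpf, against 6.37, 4.23 and 5.04 CPM in wild type. It was 7.39, 9.57 and 8.46 CPM in mutants at 61 dpf, against 4.68, 3.97 and 5.63 CPM in wild type. All 6 mutant libraries exceeded all 6 wild-type libraries, and the log2 fold change was 1.01 ± 0.17 with an edgeR adjusted p of 0.0166. The type I collagen gene col1a1a was at 74.2, 86.7 and 141 CPM in mutants at 47 dpf, against 54, 37.2 and 46.6 CPM in wild type. It was 55.5, 79.5 and 50.5 CPM in mutants at 61 dpf, against 23.8, 27.7 and 37.3 CPM in wild type. Its groups were separate within each age but overlapped across ages, and the log2 fold change was 1.1 ± 0.19 with an edgeR adjusted p of 0.0188. The other type I chain gene, col1a2, had a log2 fold change of 1.55 ± 0.28. Fibrillar and microfibrillar collagen genes col5a1 and col6a3 had 0.93 ± 0.19 and 0.79 ± 0.14. The laminin chain genes lama4 and lama5, whose products build basement membranes, had 0.99 ± 0.19 and 0.63 ± 0.14. The gene sparc, for a collagen-binding glycoprotein, had 1.04 ± 0.21. On the chromosome of adamts9, col6a1 had 25.9, 31.6 and 32.9 CPM in mutants, against 16, 19.1 and 22.8 CPM in wild type and a log2 fold change of 0.70 ± 0.12.

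In the list of proteoglycans and matrix glycoproteins, 5 of 48 tested members were called higher, beside the 0.893% of all genes called higher, with a median log2 fold change of 0.48 and 40 of 48 above 0. The largest rise was that of fn1b, a fibronectin gene. It was at 741, 309 and 248 CPM in mutants at 47 dpf, against 69.9, 60 and 49.3 CPM in wild type. It was 306, 546 and 248 CPM in mutants at 61 dpf, against 127, 131 and 182 CPM in wild type. The lowest mutant library, at 248 CPM, was above the highest wild-type library, at 182 CPM, and the log2 fold change was 2.09 ± 0.36 with an edgeR adjusted p of 0.0188. The elastin gene elnb had 2.11, 3.18 and 7.06 CPM in mutants, against 0.352, 1.01 and 2.06 CPM in wild type, and its log2 fold change was 2 ± 0.40 with an edgeR adjusted p of 0.0341. The elastic fibre gene emilin1a had 8.63, 10.4 and 11.9 CPM in mutants, against 4.84, 6.34 and 6.92 CPM in wild type, with a log2 fold change of 0.77 ± 0.14. The small proteoglycan gene dcn, encoding decorin, had a log2 fold change of 0.73 ± 0.16 with an edgeR adjusted p of 0.049. The related gene prelp, which lies on the chromosome of adamts9, had 1.66 ± 0.32. The called counts depended on single libraries, with 0 to 12 collagen and basement membrane genes and 0 to 5 proteoglycan and glycoprotein genes over the 12 fits that left out 1 library. The medians of both lists stayed above 0 in all 12 fits, at 0.44 to 0.63 and 0.43 to 0.58.

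Among the enzymes that cut matrix, 4 of 23 tested genes of the matrix metalloproteinases (MMPs) and their inhibitors (TIMPs) were called higher and none lower, beside 0.893% of all genes higher and 0.243% lower. The median log2 fold change was 0.82, and 19 of 23 were above 0. In the 4-group model the median was 0.32 at 47 dpf and 0.89 at 61 dpf. The gelatinase gene mmp9 was at 10.2, 5.85 and 4.89 CPM in mutants at 47 dpf, against 4.69, 3.66 and 4.43 CPM in wild type. It was 9.47, 11 and 9.41 CPM in mutants at 61 dpf, against 4.14, 3.59 and 4.26 CPM in wild type. The groups were separate within each age, and the log2 fold change was 1.01 ± 0.21 with an edgeR adjusted p of 0.0367. The second gelatinase gene, mmp2, had 16.2, 18 and 23.9 CPM in mutants, against 8.89, 11.5 and 15.6 CPM in wild type, with a log2 fold change of 0.72 ± 0.15 and an edgeR adjusted p of 0.041. The membrane-type protease gene mmp14a had 5.73, 6.59 and 8.42 CPM in mutants, against 2.49, 3.73 and 5.13 CPM in wild type, with a log2 fold change of 0.89 ± 0.19. The collagenase gene mmp13b had 2.72, 6.45 and 16.8 CPM in mutants, against 1.55, 2.27 and 3.2 CPM in wild type, with a log2 fold change of 1.81 ± 0.39 and an edgeR adjusted p of 0.0435. Leaving out 1 library gave 0 to 4 called genes in this list, with none in 8 of the 12 fits, and each of mmp2, mmp9, mmp13b and mmp14a was called in at most 3 of them. None of 17 tested genes of the ADAMTS family was called, although 15 were above 0 and the median log2 fold change was 0.32. DESeq2 called 2 of the 17 higher, beside 7.48% of genes off the chromosome of adamts9 called either way. The family member with the smallest p was adamts8a, at 0.857, 1.13 and 2.5 CPM in mutants, against 0.244, 0.537 and 0.8 CPM in wild type. Its log2 fold change was 1.39 ± 0.37 with an edgeR adjusted p of 0.08.

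Several genes of antigen presentation and of the interferon response were higher in mutant ovaries. Of 52 tested members of that list 10 were called higher and none lower, beside 0.893% of all genes higher and 0.243% lower. Of the 52, 47 were above 0, and the median log2 fold change was 0.75. The gene cd74a encodes the invariant chain that escorts MHC class II molecules. It was at 128, 63.7 and 57.5 CPM in mutants at 47 dpf, against 28.1, 16 and 21.1 CPM in wild type. It was 73.4, 64.7 and 63.8 CPM in mutants at 61 dpf, against 16.2, 29.1 and 22.6 CPM in wild type. All mutant libraries were above all wild-type libraries, and the log2 fold change was 1.76 ± 0.23 with an edgeR adjusted p of 0.00311. Its paralogue cd74b was at 80.3, 38.3 and 55.8 CPM in mutants at 47 dpf, against 33.6, 14.6 and 25.1 CPM in wild type. It was 58.7, 41.8 and 52.5 CPM in mutants at 61 dpf, against 16.6, 12.6 and 21.8 CPM in wild type. The groups were again separate, with a log2 fold change of 1.42 ± 0.23 and an edgeR adjusted p of 0.0166. The MHC class II gene mhc2a, which could not be placed on a chromosome, had 11.9, 38 and 64 CPM in mutants, against 10.7, 13.9 and 15.9 CPM in wild type. It overlapped at 47 dpf, and its log2 fold change was 1.45 ± 0.30. On the class I side, b2m, which encodes beta-2 microglobulin, had 19, 25.1 and 31.7 CPM in mutants, against 7.44, 9.98 and 18.2 CPM in wild type and a log2 fold change of 1.21 ± 0.23. The class I gene mhc1uba, which was in no list, had 1.63, 2.82 and 4.51 CPM in mutants, against 0.516, 0.841 and 1.22 CPM in wild type, a log2 fold change of 1.66 ± 0.26 and an edgeR adjusted p of 0.0125.

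On the interferon side, the gene mxb, for an antiviral Mx GTPase, was at 9.17, 2.47 and 3.41 CPM in mutants at 47 dpf, against 1.08, 1.49 and 0.306 CPM in wild type. It was 1.35, 6.77 and 3.06 CPM in mutants at 61 dpf, against 0.325, 0.236 and 0.172 CPM in wild type. The groups were separate within each age, and the log2 fold change was 3.05 ± 0.54 with an edgeR adjusted p of 0.0204. The ubiquitin-like modifier gene isg15 had 3.39, 7.21 and 10 CPM in mutants, against 0.425, 2.24 and 3.77 CPM in wild type, with a log2 fold change of 1.95 ± 0.36 and an edgeR adjusted p of 0.0259. The interferon-induced gene ifi45 had 6.82, 8.58 and 13.6 CPM in mutants, against 1.89, 3.13 and 6.45 CPM in wild type, with a log2 fold change of 1.51 ± 0.27. The transcription factor genes irf1b and stat2 had log2 fold changes of 1.03 ± 0.20 and 1.23 ± 0.27, and the chemokine gene cxcl18b had 1.62 ± 0.34. The related factor gene stat1b, at 1.63 ± 0.38, was not called over both ages, with an edgeR adjusted p of 0.0608. In the 4-group model stat1b was called at 61 dpf, with an edgeR adjusted p of 0.0426. Over the 12 fits that left out 1 library, 2 to 15 members of the list were called higher. A further pair of chemokine genes, in no list, were called in every one of those fits. These were ccl19a.2, with 0.362, 0.986 and 1.27 CPM in mutants, against 0.108, 0.147 and 0.2 CPM in wild type, and ccl34b.1, with 1.39, 1.72 and 2.94 CPM in mutants, against 0.236, 0.44 and 0.764 CPM in wild type. Several values of ccl19a.2 lay near the floor, and its log2 fold change was 2.6 ± 0.35, while that of ccl34b.1 was 2.06 ± 0.29.

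Genes typical of leukocytes were measured beside these. Of 37 tested macrophage and neutrophil genes 5 were called higher and none lower, beside 0.893% of all genes higher and 0.243% lower. Of the list, 33 were above 0 and the median log2 fold change was 0.95. The 5 were cd74a and cd74b, counted above, and coro1a, lcp1 and laptm5. The leukocyte actin-binding protein gene coro1a was at 10.2, 6.46 and 5.37 CPM in mutants at 47 dpf, against 3.28, 3.28 and 3.48 CPM in wild type. It was 9.1, 5.89 and 8.85 CPM in mutants at 61 dpf, against 2.41, 3.03 and 3.65 CPM in wild type. The groups did not overlap, and the log2 fold change was 1.26 ± 0.20 with an edgeR adjusted p of 0.0138. The actin-bundling gene lcp1 and the lysosomal membrane gene laptm5 had log2 fold changes of 1.48 ± 0.26 and 1.55 ± 0.32. Summed over the list, mutants had 762 to 1116 CPM and wild type had 583 to 865 CPM. The difference of 0.33 on the log2 scale had p = 0.03 in the exact permutation test and 0.147 after adjustment over 11 measures of library composition. The defining markers were above 0 in every library and none but cd74a was called. The macrophage genes csf1ra, marco and mpeg1.1 had log2 fold changes of 1.27, 1.2 and 0.95, with edgeR adjusted p-values of 0.0916, 0.129 and 0.192. The neutrophil genes lyz and mpx had -0.37 and -0.49, with edgeR adjusted p-values of 0.398 and 0.561. Their part in the interferon and antigen presentation result was not tested. In these bulk samples a change in the number of cells of a type and a change in RNA per cell cannot be told apart, in this and every other list.

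Of 21 tested lymphocyte genes 1 was called, beside the 0.893% of all genes called higher. It was the regulatory T cell transcription factor gene foxp3a, with 0.724, 0.945 and 1.95 CPM in mutants, against 0.189, 0.363 and 0.601 CPM in wild type and a log2 fold change of 1.6 ± 0.32. It was called in 3 of the 12 fits that left out 1 library. Of the 21 lymphocyte genes 15 were above 0, and the median log2 fold change was 0.39. Summed over the lymphocyte list, mutants had 92.9 to 119 CPM and wild type had 99.8 to 158 CPM. Of 35 tested endothelial and mural genes 1 was called, beside the 0.893% of all genes called higher. This was the vascular transcription factor gene fli1b, with 5.77, 7.56 and 11.2 CPM in mutants, against 4.11, 4.2 and 5.01 CPM in wild type and a log2 fold change of 0.82 ± 0.18. It was called in 1 of the 12 fits that left out 1 library, and the list had 0 calls with median-of-ratios scaling, with no filter and with voom. Of the 35 endothelial and mural genes 31 were above 0, and the median log2 fold change was 0.32. The endothelial list summed to 289.7 to 387 CPM in mutants, against 256 to 371 CPM in wild type. None of 16 erythroid genes was called.

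The 10 largest rises named by a rule on level, separation and adjusted p were those of krt5, lgals3bpb, mxb, f2r, lgals17, fn1b, elnb, f8, isg15 and cd74a. In that rule 96 higher genes off the chromosome of adamts9 qualified. The keratin gene krt5, typical of basal cells of stratified epithelium, was at 10.2, 26.5 and 133 CPM in mutants at 47 dpf, against 3.85, 3.01 and 5.31 CPM in wild type. It was 5.47, 42.6 and 5.74 CPM in mutants at 61 dpf, against 2.57, 1.23 and 3.53 CPM in wild type. The mutant libraries spread over a wide range above the wild-type libraries, and the log2 fold change was 3.35 ± 0.69 with an edgeR adjusted p of 0.0381. The galectin-binding glycoprotein gene lgals3bpb was at 64.6, 3.26 and 7.95 CPM in mutants at 47 dpf, against 1.72, 1.83 and 0.841 CPM in wild type. It was 21.1, 18 and 15.1 CPM in mutants at 61 dpf, against 2.84, 2.41 and 4.47 CPM in wild type. Mutant replicate 1 of 47 dpf was far above the others, and the log2 fold change was 3.27 ± 0.64 with an edgeR adjusted p of 0.031. The galectin gene lgals17 had 1.71, 4.21 and 5.89 CPM in mutants, against 0.284, 0.702 and 1.92 CPM in wild type, with a log2 fold change of 2.19 ± 0.41. The gene f8, for coagulation factor VIII, had 3.92, 12.4 and 15.8 CPM in mutants, against 1.22, 2.46 and 6.33 CPM in wild type, with a log2 fold change of 1.97 ± 0.43 and an edgeR adjusted p of 0.0469. Of these 10 genes f2r and cd74a were called in all 12 fits that left out 1 library, while krt5, lgals3bpb, elnb and f8 were called in 4, 4, 3 and 2 of them.

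Fewer genes were lower than higher in mutants. The 29 genes called lower had log2 fold changes of -1.74 to -0.54 with a median of -0.89, while the 153 called higher had 0.63 to 6.66 with a median of 1.26. The upper end of the rises is scpp7, a gene of the secretory calcium-binding phosphoprotein family, whose wild-type values were at or near the floor in all 6 libraries, so that its fitted fold change depends on the prior count. Of the 29 falls, only that of csad was called in all 12 fits that left out 1 library. Its enzyme, cysteine sulfinic acid decarboxylase, acts in taurine synthesis. The gene csad was at 14.5, 18 and 17.2 CPM in mutants at 47 dpf, against 25.9, 27.9 and 37.8 CPM in wild type. It was 14.8, 19.9 and 18.9 CPM in mutants at 61 dpf, against 49.5, 36.3 and 43.4 CPM in wild type. All mutant libraries were below all wild-type libraries, and the log2 fold change was -1.08 ± 0.15 with an edgeR adjusted p of 0.00567. The centromere protein gene cenpf, which acts at kinetochores in mitosis, was at 131, 81.3 and 135 CPM in mutants at 47 dpf, against 149.9, 228 and 359 CPM in wild type. It was 109, 163 and 129.6 CPM in mutants at 61 dpf, against 467, 322 and 559.7 CPM in wild type. The groups were separate within each age, with a larger gap at 61 dpf, and the log2 fold change was -1.42 ± 0.24 with an edgeR adjusted p of 0.0179.

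The other 8 of the 10 largest falls were hdac7b, sept5a, fam49a, gpr176, rab13, terf1, lrrc40 and ccdc149b, chosen from 20 lower genes that qualified. The histone deacetylase gene hdac7b had 0.837, 1.6 and 5.07 CPM in mutants, against 1.99, 5.73 and 13 CPM in wild type, with a log2 fold change of -1.74 ± 0.34 and an edgeR adjusted p of 0.0308. The septin gene sept5a was at 1.51, 1.39 and 1.4 CPM in mutants at 47 dpf, against 2.12, 3.16 and 5.08 CPM in wild type. It was 3.39, 2.77 and 1.39 CPM in mutants at 61 dpf, against 9.96, 5.53 and 18.2 CPM in wild type. The wild-type libraries of 61 dpf held its highest values, and the log2 fold change was -1.73 ± 0.34. The telomere-binding protein gene terf1 had 8.57, 16 and 16.5 CPM in mutants, against 19.8, 28.1 and 64.6 CPM in wild type and a log2 fold change of -1.11 ± 0.24. The small GTPase gene rab13, which acts in membrane traffic at cell junctions, had -1.19 ± 0.25, and the orphan receptor gene gpr176 had -1.24 ± 0.27. The 3 remaining genes had log2 fold changes of -1.24 ± 0.27 for fam49a, -0.92 ± 0.18 for lrrc40 and -0.89 ± 0.16 for ccdc149b. Each of these 8 genes was called in 2 to 7 of the 12 fits that left out 1 library.

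In the list of cell cycle genes, which holds cenpf, few members were called. Of 40 tested cell cycle genes 1 was called higher and 1 lower, beside 0.893% of all genes higher and 0.243% lower, and the median log2 fold change was -0.09. The call in the other direction was mcm3, a subunit gene of the replicative helicase, with 4.38, 6.19 and 10 CPM in mutants, against 1.72, 2.78 and 4.89 CPM in wild type and a log2 fold change of 1.24 ± 0.23, called in 2 of the 12 fits that left out 1 library. None of 35 apoptosis and p53 genes was called over both ages, with casp8, an initiator caspase gene, at -0.65 ± 0.16 and an edgeR adjusted p of 0.066. Of 36 immediate early genes 2 were called higher, beside the 0.893% of all genes, and leaving out 1 library gave 0 to 2, with none in 8 of the 12 fits. The called genes were the clock gene per1a, with 3.67, 10.2 and 11.5 CPM in mutants, against 2.51, 2.95 and 6.01 CPM in wild type and a log2 fold change of 1.43 ± 0.28, and the matricellular gene ccn2a, with 3.23, 6.2 and 8.44 CPM in mutants, against 1.51, 2.18 and 4 CPM in wild type and a log2 fold change of 1.25 ± 0.27. None of 36 spermatid and axoneme genes was called, and dnai2a, for an outer arm dynein chain, had 0.306, 1.8 and 5.96 CPM in mutants, against 5.01, 8.57 and 20.2 CPM in wild type with a log2 fold change of -2.1 ± 0.57 and an edgeR adjusted p of 0.0859.

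Genes of neighbouring organs were mostly above 0 without a call. In the liver list 30 of 31 tested genes were above 0 and none was called, with a median log2 fold change of 1.1. It summed to 84.4 to 446 CPM in mutants, against 59.5 to 117 CPM in wild type. The liver fatty acid binding gene fabp10a was at 32.1, 0.664 and 1.09 CPM in mutants at 47 dpf, against 0.801, 0.0381 and 0.115 CPM in wild type. It was 7.39, 0.182 and 0.111 CPM in mutants at 61 dpf, against 0.244, 0.236 and 0.172 CPM in wild type. The high values came from replicate 1 of each mutant group, and the edgeR adjusted p was 0.0907. The median log2 fold change of the liver list was 1.59 at 47 dpf and 0.60 at 61 dpf. In the exocrine pancreas list 25 of 26 genes were above 0 over both ages with none called, but the median was 2.19 at 47 dpf and -0.17 at 61 dpf, and it summed to 39.7 to 3461 CPM in mutants, against 37.4 to 1093 CPM in wild type. In the skeletal muscle list 28 of 37 were above 0 with none called, and it summed to 746 to 1866 CPM in mutants, against 377 to 973 CPM in wild type. All 6 tested vitellogenin genes, which encode the yolk precursor made in the liver, were below 0 and none was called, with a median log2 fold change of -1.61 over both ages, 0.96 at 47 dpf and -3.98 at 61 dpf. At 61 dpf in the 4-group model, 2 of the 6 were called lower, vtg4 and vtg7, beside 1.64% of genes off the chromosome of adamts9 called either way. Fitted on the 61 dpf libraries alone, 0 of the 6 were called. For vtg7 the values were 0.103, 0.181 and 0.131 CPM in mutants at 47 dpf, against 0.0801, 0.229 and 0 CPM in wild type. They were 0.694, 0.364 and 0.167 CPM in mutants at 61 dpf, against 7.15, 0.993 and 13.9 CPM in wild type. The highest values were in the wild-type libraries of 61 dpf, led by replicates 1 and 3. Vitellogenin copies are near identical, so the estimation may divide reads between them and single copies are uncertain.

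**Figure D3:**
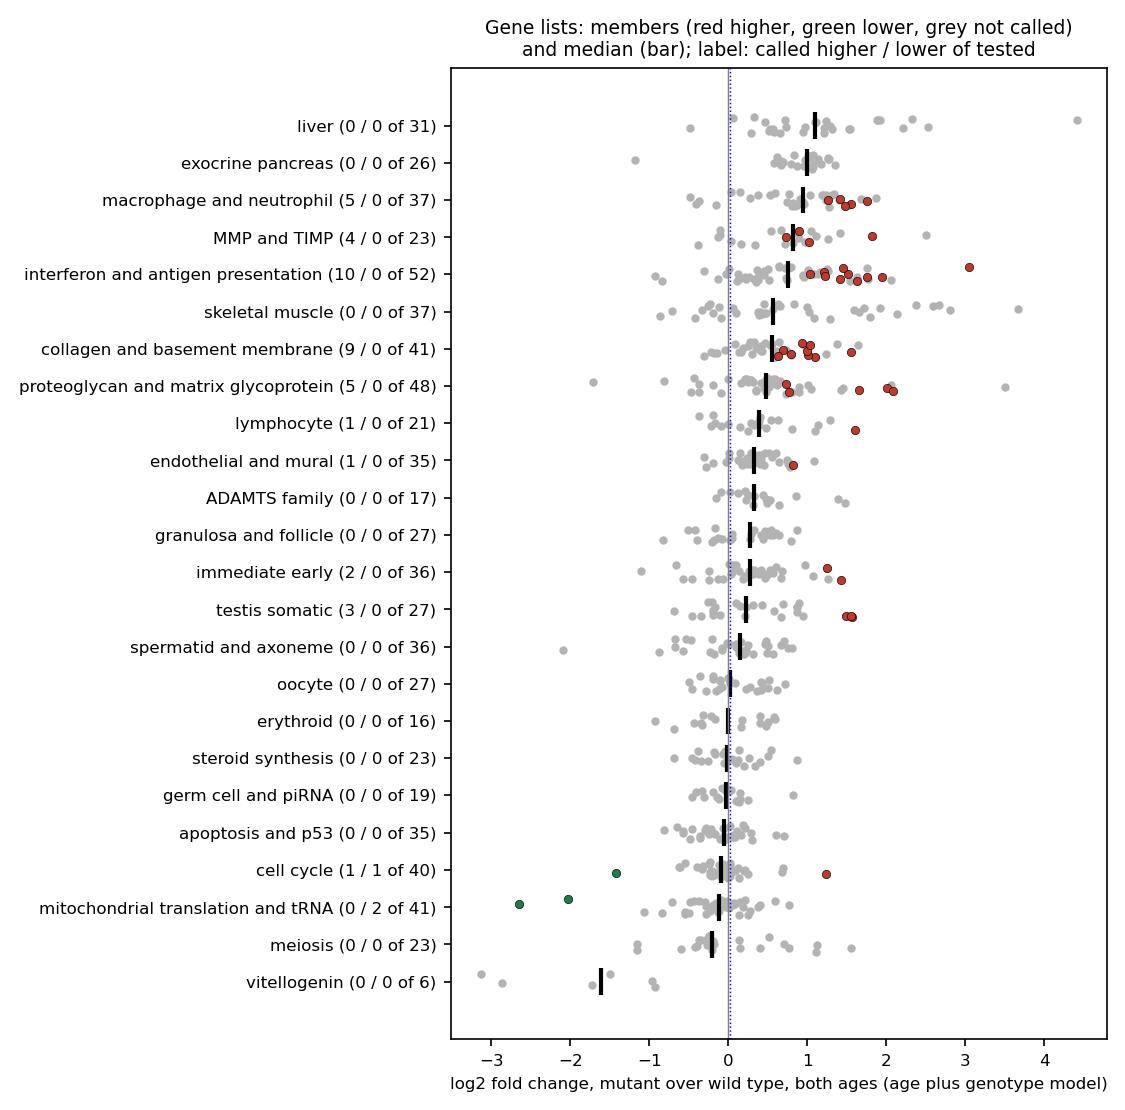
Log2 fold change of mutant over wild type over both ages for the members of 24 gene lists, with red for called higher, green for called lower, grey for not called, a black bar for the list's median and a dotted line for the median of all genes (0.02). Called members of the matrix, protease, interferon and leukocyte lists lie to the right of 0, and the oocyte, germ cell, meiosis and steroid lists hold none. Of all genes tested 1.14% were called. The lists were chosen with earlier results of these data known.

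None of 11 measures of library composition passed the adjusted threshold in the exact permutation test. The smallest possible p of that test is 0.005, so 1 measure that differed alone could not pass after adjustment over 11 measures. The measures are therefore not shown to be equal. Ribosomal protein genes took 1.95% ± 0.229 of counts in mutant libraries and 1.57% ± 0.266 in wild-type libraries (SD, n = 6 each), with p = 0.015 in the exact permutation test and 0.147 after adjustment over 11 measures. Mitochondrial genes took 0.830% ± 0.159 in mutant libraries and 1.18% ± 0.567 in wild-type libraries, with exact permutation p = 0.08 and 0.147 adjusted. The part that these measures and the lists of neighbouring organs have in the gene results was not tested.

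The genes called over both ages were called more often at 61 dpf than at 47 dpf. In the 4-group model 3 of the 182 genes were called at 47 dpf and 62 at 61 dpf. In a model with 4 groups, all 182 genes called off the chromosome of adamts9 had the same sign at both ages, which choosing genes on the effect over both ages favours. Of the 153 higher genes 3 were called at 47 dpf and 50 at 61 dpf, with 2 called at both ages and 102 at neither. Over all genes off that chromosome this model called 3 (0.0171%) at 47 dpf and 287 (1.64%) at 61 dpf. The median absolute log2 fold change of the 153 higher genes was 1.22 at 47 dpf and 1.32 at 61 dpf. Of the 29 lower genes none was called at 47 dpf and 12 were called at 61 dpf, with median absolute log2 fold changes of 0.62 and 1.11, and 27 of the 29 were larger at 61 dpf. The difference between the ages was called by edgeR for none of the 21393 genes, while 1812 (8.47%) had an unadjusted p under 0.05, among them 12 of the 182. The groups did not overlap in the same direction within either age for 133 of the 153 higher and 24 of the 29 lower genes. Over all genes off that chromosome 471 (2.69%) were separated so upwards and 241 (1.38%) downwards. With the ages together, all 6 mutant libraries were above all 6 wild-type libraries for 104 of the 153 genes and below them for 12 of the 29, beside 260 (1.48%) and 89 (0.508%) of all genes off that chromosome. Fitted on the libraries of 1 age alone, 2 genes off the chromosome were called at 47 dpf and 6 at 61 dpf.

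**Figure D4:**
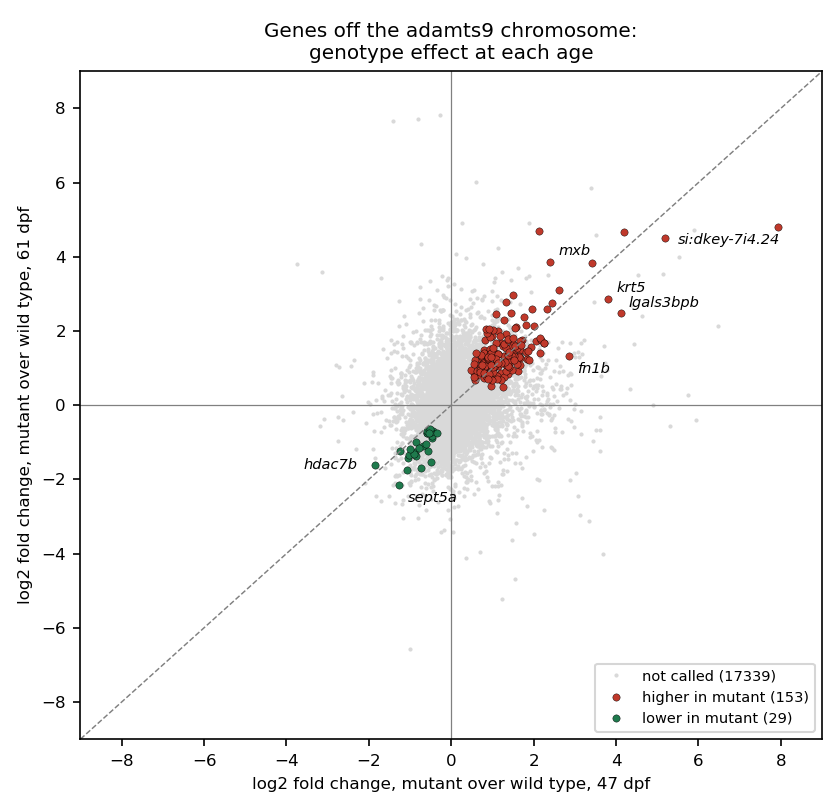
Log2 fold change of mutant over wild type at 47 dpf (horizontal axis) and at 61 dpf (vertical axis) for the 17521 tested genes off the chromosome of adamts9, with the 153 genes called higher over both ages in red, the 29 called lower in green and a dashed line of equal change. Red points lie on both sides of the line, and 27 of the 29 green points have the larger change at 61 dpf.

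On the chromosome of adamts9, called genes differed in both directions. Of the 35 called, 9 were called at both ages in the 4-group model and 20 were called in all 12 fits that left out 1 library, against 2 and 18 of the 182 called on other chromosomes. The largest rise by the naming rule was ogfrl2, an opioid growth factor receptor-like gene, at 35.2, 33.6 and 59.3 CPM in mutants at 47 dpf, against 2.44, 1.68 and 2.02 CPM in wild type. It was 49.9, 51 and 47.3 CPM in mutants at 61 dpf, against 2.54, 1.09 and 2.28 CPM in wild type. The groups were far apart, with a log2 fold change of 4.5 ± 0.24 and an edgeR adjusted p of 6.43e-07. The planar polarity gene prickle2b had 71.9, 84.2 and 95.8 CPM in mutants, against 11.2, 20 and 26.5 CPM in wild type, with a log2 fold change of 2.09 ± 0.20, and the secreted olfactomedin-like gene olfml3b had 2.87 ± 0.42. The largest falls by the same rule were those of tmf1, a Golgi protein gene, with a log2 fold change of -2.67 ± 0.20, rpusd4 with -2.65 ± 0.13 and cdk5rap1 with -2.03 ± 0.20. The last pair are mitochondrial RNA-modifying enzyme genes and made up the 2 called members among 41 of the list of mitochondrial translation and tRNA genes. Of all genes 0.243% were called lower. Of the 41 genes 5 lie on the chromosome of adamts9, where 2.52% of genes were called lower. For rpusd4 the values were 7.67, 8.93 and 7.38 CPM in mutants at 47 dpf, against 44.6, 48.9 and 52.7 CPM in wild type. They were 6.12, 7.79 and 6.74 CPM in mutants at 61 dpf, against 50.7, 43.3 and 39.6 CPM in wild type. No library of either genotype came near the other genotype's range. An effect of the mutation on genes of its own chromosome and differences in sequence between the mutant line and the AB strain around the mutation cannot be told apart here. On other chromosomes too, an effect of the mutation and a difference between the lines cannot be told apart.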

How the data were processed

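PolyA RNA from zebrafish ovaries gave 12 libraries, 3 for each genotype at each of 2 ages, with genotype, age and replicate number read from the sample labels. The authors deposited estimated counts by gene symbol in a single table, with a column for each library. Kallisto and the GRCz11 assembly are named in the submitters' processing notes, but neither the versions, the annotation nor the summing of transcripts to genes. Of 26172 lines, 1 had no name (at most 0.000113% of a library) and 17 carried a spreadsheet date for a symbol (together at most 0.125% of a library). Both kinds were dropped before library sizes were taken. Of the values, 45.4% were not whole (tolerance 1e-06), and the counts were rounded. Among the 26154 genes kept, 275 had no counts at all, and 47 with more than 120 counts shared all their values with another gene. Such copies, and near-identical paralogues, are uncertain singly. The strand setting of the counting is not given, so overlapping genes are uncertain too.

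RefSeq's gene table for GRCz12tu, which is not the assembly of the files, was used only for which genes share the chromosome of adamts9. It placed 20511 genes, 19602 by symbol and 909 by synonym. After filterByExpr on the 4 groups 21393 genes were fitted with edgeR 4.0.16 in R 4.3.3 (TMM scaling, age plus genotype, quasi-likelihood F-test, common biological coefficient of variation 0.339). Genes with a Benjamini-Hochberg adjusted p under 0.05 over all genes tested are termed called. Log2 fold changes are mutant over wild type and are given with their standard error. Values at each age came from a 4-group model. Single values were compared by exact two-sided permutation within the ages. Depth was 16439538 to 38720166 counts per library. The procedure was tested on simulated data.

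The genes compared, the gene lists and the rule for named genes were chosen with earlier results of these data known, so no list is independent evidence of its direction. The rule took 20 key genes. It added the 10 strongest rises and 10 strongest falls off the chromosome of adamts9, and 3 of each on it, by log2 fold change. These had to be called, average log2 CPM 1 or more, carry a symbol that is not a clone name, and have groups that did not overlap within either age. It also took up to 3 called members of each list with the smallest p, or 1 member where none was called. Alternatives were other scaling, no filter, DESeq2 1.42.0, limma voom (limma 3.58.1) with sample weights, a 4-group model, a replicate block, each age alone, and leaving out each library.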

Additional observations from a re-analysis of the deposited data

Results flagged for a closer look

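Within the 6 libraries of a genotype, with both ages together, 17 values lay far from the other 5 in 174 sets checked, which is 9.8%, while chance flags about 1 in 20 groups. Pooling the ages adds the difference between ages to the range. In mutant replicate 1 of 47 dpf, cd74a was at 128 CPM, against 57.5 to 73.4 CPM in the other mutant libraries, and ddx4 was at 278 CPM, against 862 to 1635 CPM. In mutant replicate 2 of 47 dpf the high values were dmrt1 at 19.7 CPM, neb, a sarcomere gene, at 29.5 CPM, the skeletal muscle list at a sum of 1866 CPM and ribosomal protein genes at 2.4% of counts. The low values there were amh at 4.4 CPM and terf1 at 8.57 CPM. In mutant replicate 1 of 61 dpf, olfml3b was at 1.02 CPM, against 4.68 to 7.9 CPM in the other mutant libraries, col6a1 at 25.9 CPM and per1a at 3.67 CPM, all low. In mutant replicate 3 of 61 dpf cdk5rap1 was high at 5.9 CPM. Wild-type replicate 3 of 61 dpf was low in foxl2a at 2.58 CPM and high in amh at 12.6 CPM and in the lymphocyte list at a sum of 158 CPM. Wild-type replicate 1 of 61 dpf was low in cela1.4, an elastase gene, at 2.3 CPM, and wild-type replicate 1 of 47 dpf was high in per1a at 6.01 CPM. The low olfml3b value of mutant replicate 1 of 61 dpf is close to the wild-type maximum of 1.04 CPM, and that gene's call on both ages held in all 12 fits that left out 1 library.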

How the results depend on the processing

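Among the 182 genes called off the chromosome of adamts9, every alternative fitted on both ages kept all 182 directions, and 154 were still called with median-of-ratios scaling, 173 with upper-quartile scaling, 125 with no filter, 177 with DESeq2, 105 with limma voom and 182 with the 4-group mean. With the 47 dpf libraries alone 179 kept their direction and 0 their call, and with the 61 dpf libraries alone 177 and 2. Choosing the genes on the effect in these same libraries favours kept directions in all of these fits. The counts called higher and lower off that chromosome were 153 and 29. They were 324 and 22 with upper-quartile scaling, which put the median gene at a log2 fold change of 0.14 (0.02 with TMM), 109 and 17 with no filter, 611 and 699 with DESeq2, 105 and 15 with voom, 242 and 61 with the 4-group mean, 1 and 1 at 47 dpf alone, and 4 and 2 at 61 dpf alone. On the chromosome of adamts9 the count was 35, and it was 90 with DESeq2, 8 at 47 dpf alone and 7 at 61 dpf alone. Leaving out 1 library gave 21 to 194 higher and 1 to 79 lower off the chromosome and 20 to 39 on it, with 20 without wild-type replicate 3 of 47 dpf, 22 without mutant replicate 2 and 23 without mutant replicate 3 of 61 dpf. The causes were not tested.

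A replicate block gave 28 higher and 1 lower off the chromosome and 22 on it, and 26 of the 182 genes were still called. Correlations of same-numbered samples' deviations were 0.0348, 0.0684 and 0.254 at 47 dpf and 0.0227, 0.0082 and -0.0157 at 61 dpf. Those of differently numbered samples were -0.147 to 0.0712 at 47 dpf and -0.0254 to 0.0175 at 61 dpf. The labels do not say that a number is shared by mutant and wild type, and 3 libraries per group cannot decide it. With the block 0 of 41 collagen and basement membrane genes, 0 of 48 proteoglycan genes and 0 of 23 MMP and TIMP genes were called. The counts were 3 of 52 interferon and antigen presentation genes, 2 of 37 macrophage and neutrophil genes and 3 of 27 testis somatic genes. These stand beside 62 of 21393 genes called with the block, and 0.166% of those off the chromosome of adamts9. At that share lists of this size would hold few or no calls.

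The log2 fold change of adamts9 was 0.037 with upper-quartile scaling and 0.062 at 61 dpf alone (its permutation difference 0.088 at 61 dpf alone, 0.028 with CPM by library total and 0.059 with upper-quartile scaling). Other reversals among uncalled genes were cyp19a1a with -0.33 at 61 dpf alone (-0.040 to 0.787 on leaving out 1 library), fshr with 0.15 and star with -0.040 at 47 dpf alone, lhcgr with -0.011 under median-of-ratios scaling, -0.0086 with DESeq2 and -0.82 at 61 dpf alone (-0.25 to 0.21), and dazl with -0.024 under median-of-ratios scaling and -0.024 with DESeq2, -0.011 with no filter, -0.010 with voom and -0.086 at 47 dpf alone (-0.15 to 0.19). Of the summed lists, erythroid was -0.091 at 61 dpf alone (-0.11 to 0.37) and exocrine pancreas -0.99 (-0.21 to 1.26). Of 45 called named genes, 13 to 40 stayed called on leaving out 1 library. None of them reversed in any setting, which choosing called genes favours.

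With 3 libraries per group and wild-type libraries of 61 dpf that vary most, a gene that was not called is not shown to be equal. Genes near the floor of 3 counts are the least certain.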

Other observations

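Further genes called off the chromosome of adamts9 or not placed were picked after their values were seen, so they are descriptions. Complement genes were among them. The terminal pathway gene c6, which could not be placed, had 18.5, 21.1 and 33.8 CPM in mutants (lowest, median and highest), against 8.08, 10.1 and 13.4 CPM in wild type, a log2 fold change of 1.15 ± 0.17 and an edgeR adjusted p of 0.008, and it was called in all 12 fits that left out 1 library. Its neighbour in the membrane attack complex, c7a, had 1.67, 3.24 and 6.34 CPM in mutants (lowest, median and highest), against 0.774, 0.876 and 2.52 CPM in wild type and a log2 fold change of 1.48 ± 0.29, and c4b, a component of the early cascade, had 10.9, 21.9 and 23.6 CPM in mutants (lowest, median and highest), against 6.67, 8.41 and 13.3 CPM in wild type and a log2 fold change of 1.11 ± 0.22. The last pair of genes were called in 3 and 4 of those fits.

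The TGF-beta ligand gene tgfb2 and the receptor gene tgfbr2a had log2 fold changes of 1.11 ± 0.24 and 1.74 ± 0.38, with edgeR adjusted p-values of 0.0495 and 0.0469, and were called in 1 and 2 of the 12 fits. The cell adhesion genes cdh2, for N-cadherin, and ncam1a had 1.09 ± 0.19 and 0.83 ± 0.17. The retinoic acid binding protein gene crabp2b had 0.72 ± 0.15, with 12.5, 13.2 and 15.8 CPM in mutants (lowest, median and highest), against 5.87, 8.35 and 10.9 CPM in wild type. The clock gene cry1a had 1.12 ± 0.23, beside 1.43 ± 0.28 for per1a. The gene known by the clone name si:dkey-7i4.24 was at 34.7, 2.84 and 10.8 CPM in mutants at 47 dpf, against 0.481, 0.343 and 0.497 CPM in wild type. It was 25.2, 20.1 and 28.6 CPM in mutants at 61 dpf, against 1.71, 0.709 and 0.731 CPM in wild type. Its groups did not overlap, although mutant replicate 2 of 47 dpf was far below the other mutant libraries, and the log2 fold change was 4.82 ± 0.53 with an edgeR adjusted p of 0.000701.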
